A study of Drosophila melanogaster with 15 samples.

Results

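The Mediator subunits, the TBP-associated factors (TAFs) and the TFII factors of RNA polymerase II were followed through early development of the Drosophila melanogaster embryo. Members were the genes whose current symbol starts with MED, Taf or TfII followed by a digit or a capital letter and that had an array probe set of their own. The rule found 42 genes on 44 of the 13966 probe sets tested, among 10844 genes with a probe set of their own, namely 20 Mediator subunits, 13 TAFs and 9 TFII factors. Taf4 and MED26 had a second, dimmer probe set, which is given beside the brighter one that stands for the gene. Of 49 genes in the current annotation that match the rule, 7 were not analysed here. These were MED7, MED21, MED22 and Taf2, and also MED9, MED23 and Taf11, whose probe sets carry a second gene.

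RNA polymerase II starts transcription of protein-coding genes only with the help of general transcription factors. TFIID, made of the TATA-binding protein TBP and the TAFs, recognises the core promoter. TFIIA and TFIIB steady it there, TFIIF brings in the polymerase, and TFIIE and TFIIH help to open the DNA. Mediator is a large co-activator that links DNA-bound regulators to this assembly, and it is described in head, middle, tail and kinase modules. The fly embryo starts with RNA and protein made by the mother, and its own genome is switched on before and during cellularisation, so the mother must supply the transcription machinery at first.

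The study used Affymetrix expression arrays on RNA of whole embryos sorted by hand, from yellow white and Oregon R flies at all stages. Stage T0 was collected before pole cells bud and before zygotic transcription, T1 in the slow phase of cellularisation and T2 in its fast phase. T3 and T4 mark the onset and the completion of germ band extension in the sample labels, but those of gastrulation in the series text, and which applies cannot be told here. No group carries a treatment, and no mutation is given that differs between the stages. Each stage had 3 arrays, 15 in all, and this number limits the precision. The labels do not say whether replicates came from separate collections, so every p-value reflects the spread among these arrays alone, which may be technical.

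Values are MAS5 signals in array units, scaled to a trimmed mean of 100 on every array, so each change is relative to the average of its array. Fold changes are differences of log2(signal + 7.3) and understate the change of dim genes. Calls needed a limma adjusted p below 0.05 together with a log2 fold change of 1 or more in either direction. A signal of 21.96, the 95th percentile of 23 negative-control probe sets, marked the background. Signals of different probe sets were not set against each other, since probes differ in brightness. In whole embryos, fewer cells that hold a transcript and less of it per cell cannot be told apart.

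The arrays followed their labels. The summed signal of the maternal transcripts BicC, exu, osk and png lay between 5716.9 and 7712.0 at T0 and between 41.3 and 164.0 later. The cellularisation genes Z600, halo, slam and nullo summed to between 19592.7 and 21132.4 at T1, against 457.1 to 577.3 at T0. The later marker genes en, gsb, ind and T48 summed to between 125.2 and 159.9 at T0 and between 22.3 and 40.5 at T1, where T48 was called lower. Their sum reached 596.6 to 1227.4 from T2 on. Of 9 measured eggshell and follicle cell genes 1, the oocyte receptor yl, was called lower at T1, and the list summed to between 1469.3 and 2450.5 at T0 and 255.1 and 298.8 at T1. All 4 measured pole cell genes fell at T1, their sum going from between 3545.8 and 4383.0 to between 347.8 and 388.0. The actin probe sets gave a ratio of 3′ to 5′ signal of 1.81 to 2.47 at T0 and 1.70 to 1.88 at T1, and the eIF-4a probe sets one of 2.76 to 3.34 and 2.61 to 4.57. That of the GAPDH probe sets was less even, at 1.73 to 2.41 at T0, 1.3 to 8.35 at T1 and 0.23 to 1.01 at T2. The part of these levels in the changes below was not tested.

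Maternal supply came first. At T0, 37 of the 42 genes (88.1%) had a signal above the negative-control level on all 3 arrays, against 47.9% of all probe sets tested. The exceptions were Taf1, Taf10b and TfIIS, which passed it on some arrays, and Taf12L and TfIIA-S-2, which passed it on none. In all, 34 genes stayed above it on all 15 arrays. RNA for most of the measured machinery was thus detected in the egg, in all 3 families.

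T0 was at the same time the stage of the lowest mean for 25 of the 42 genes (59.5%), against 37.7% of all probe sets. It was the stage of the highest mean for 4, namely MED19, MED8, Taf8 and TfIIEalpha (9.5%), against 21.8% of all probe sets. These ranks use the signals as deposited and were not repeated with arrays centred on another reference. The moderated F test in limma over the stages, at an adjusted p under 0.05, was passed by 33 of the 42 genes (78.6%). The background is 44.1% of all probe sets, and 68.2% of the probe sets whose mean lay above the negative-control level, as that of 41 members did. The 9 that did not pass were MED1, MED6, MED14, MED31, Taf1, Taf7, Taf10b, TfIIB and TfIIS. Fewer of the genes passed with arrays centred on hybridisation controls, as given in the last section.

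**Figure D1:**
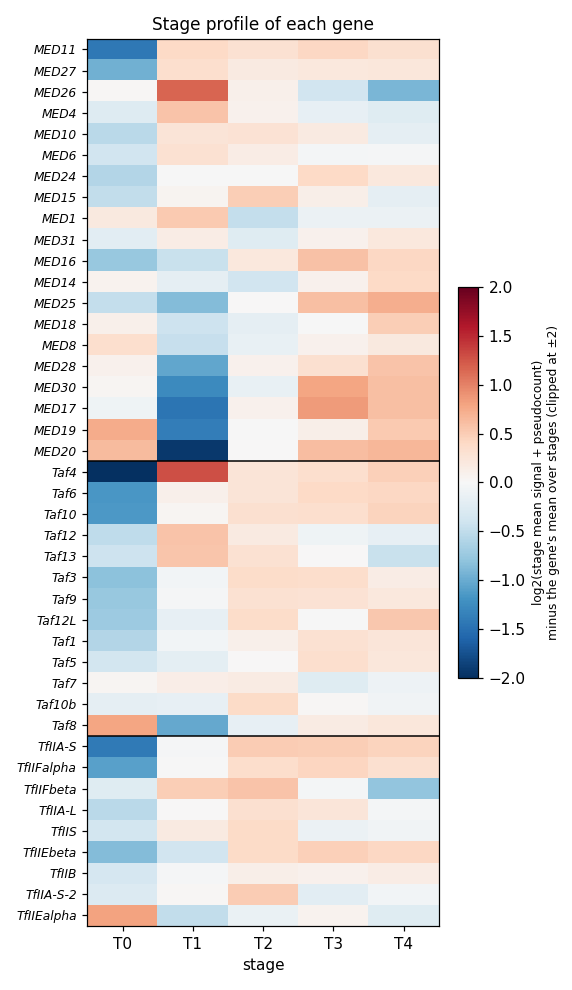
Stage profile of the 42 genes (rows, Mediator above, TAFs in the middle, TFII factors below) over stages T0 to T4 (columns). Colour gives log2(stage mean signal + 7.3) minus the mean of the gene over stages, clipped at 2 in size, so 25 rows have their lowest value at T0 and 10 theirs at T1.

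The step from T0 to T1 moved the machinery in both directions. It asked which maternal transcripts are lost and which transcripts are gained by the slow phase of cellularisation. Of the 42 genes 9 were called higher (21.4%) and 7 lower (16.7%). Over all probe sets 7.82% were higher and 15% lower, or 12.6% and 23.7% of those with a mean above the negative-control level, so the share of lower genes is no result about these genes. Their median log2 fold change was 0.53, against 0.08 over all probe sets. With arrays centred on ribosomal proteins the median of the genes was -0.04 and that of all probe sets -0.49. Hybridisation controls as the reference gave 0.03 and -0.43. The distance of the genes from all probe sets was 0.45 or 0.46 in these scalings and in that on the array median, and 0.54 after quantile normalization. In place of 9 higher and 7 lower genes, quantile normalization gave 10 and 4, the ribosomal reference 2 and 9, and the hybridisation reference 2 and 8.

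**Figure D2:**
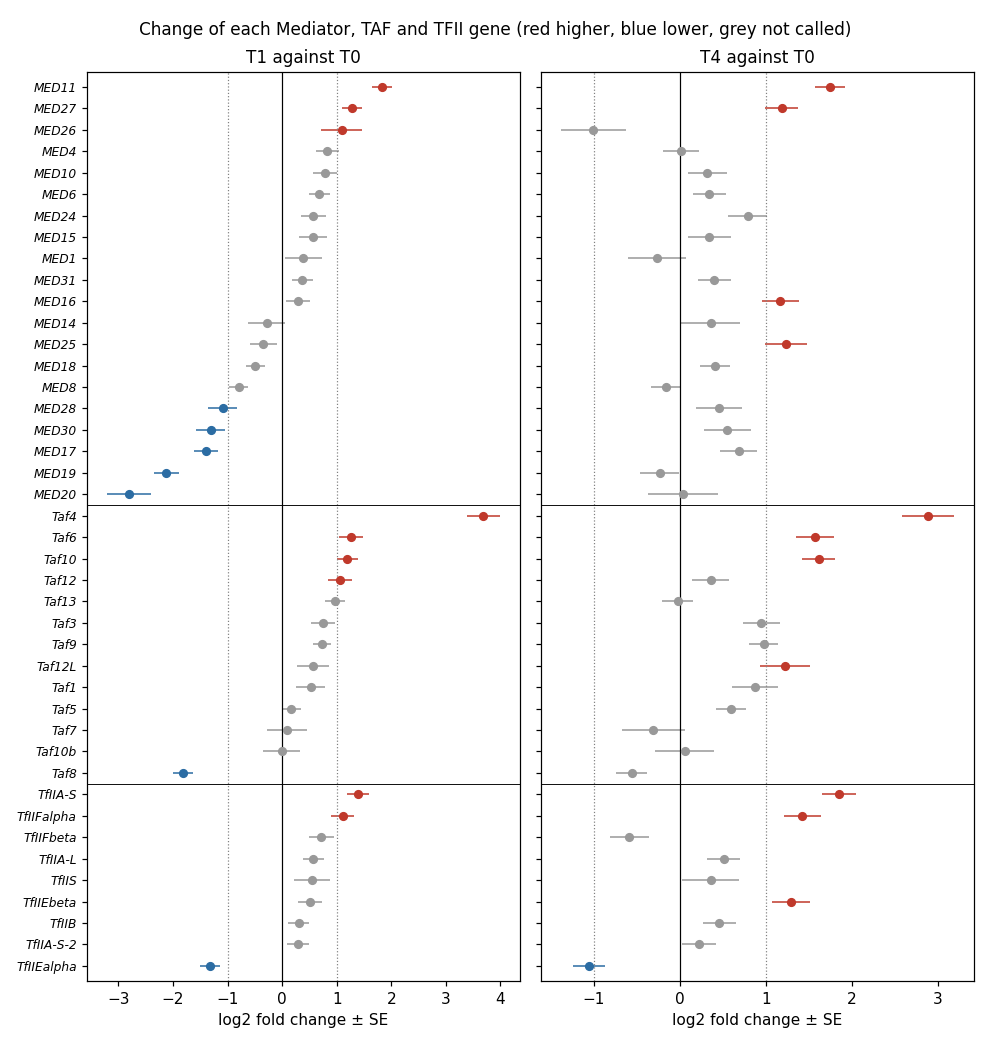
Log2 fold change with its standard error for each of the 42 genes at T1 against T0 (left) and T4 against T0 (right), by family, with dotted lines at 1 and -1. Red points were called higher (9 and 11 genes), blue ones lower (7 and 1), and Taf4 stands farthest to the right in both panels.

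The genes that fell at T1 were led by MED20, a subunit of the Mediator head. MED20 had signals of 105.2, 126.4 and 159.6 at T0 and of 5.0, 6.2 and 37.1 at T1. Only the third T1 array exceeded the negative-control level, and the stages did not overlap. The log2 fold change of MED20 was -2.80 ± 0.405 (SE, adjusted p in limma 8.92e-05). Without that array, T1 replicate 3, both T1 arrays left were below the negative-control level, and MED20 was at least 5.85-fold lower. At T2 it had 88.7, 59.6 and 97.4, at T3 between 112.9 and 158.3 and at T4 between 97.4 and 160.8. The T2 arrays were still below every T0 array, those of T3 lay within the T0 range and those of T4 overlapped it, with a log2 fold change of 0.03 ± 0.405 for T4 against T0.

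MED19, which structural models place in the middle module, read 791.4, 813.4 and 776.0 at T0 and 174.4, 161.8 and 194.8 at T1. The drop of 2.12 ± 0.23 on the log2 scale left no overlap (adjusted p in limma 5.63e-06). MED19 stood at 434.5, 349.6 and 625.9 at T2 and between 589.0 and 869.3 at T4.

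MED17, the architectural core of the head, read 152.5, 140.2 and 165.5 at T0 and 44.4, 46.3 and 73.3 at T1. The log2 fold change was -1.40 ± 0.22 (adjusted p in limma 0.000176), and -0.94 after quantile normalization, under the threshold of size. MED17 then reached 155.5, 174.0 and 190.0 at T2 and between 251.7 and 346.3 at T3, above all its T0 arrays.

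MED28 and MED30, subunits of animal Mediator that structural work places in the tail, fell as well. MED30 read 156.0, 174.1 and 227.5 at T0 and 63.1, 87.3 and 61.0 at T1, a log2 fold change of -1.31 ± 0.27 (adjusted p in limma 0.00168). MED28 had 143.2, 185.1 and 257.9 at T0 against 93.6, 75.1 and 88.5 at T1. Neither gene had overlapping stages. The MED28 value of -1.09 ± 0.26 (adjusted p in limma 0.00511) rests in part on the brightest T0 array, since it was -0.88 and not called without T0 replicate 4. It was also not called after quantile normalization (-0.73) or centred on the array median (-0.92), and MED30 was not after quantile normalization (-0.90).

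Taf8, a histone-fold TAF that pairs with Taf10 in TFIID, had 232.0, 280.4 and 253.1 at T0 and 63.6, 70.1 and 68.0 at T1. Its log2 fold change was -1.81 ± 0.18 (adjusted p in limma 3.22e-06). TfIIEalpha, the large subunit of TFIIE, read 392.1, 380.6 and 454.1 at T0 and 191.7, 127.0 and 164.3 at T1, with a log2 fold change of -1.32 ± 0.19 (adjusted p in limma 7.01e-05). Both genes had 3 T1 arrays below all T0 arrays. Without any 1 array the value lay between -1.88 and -1.74 for Taf8 and between -1.45 and -1.17 for TfIIEalpha.

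**Figure D3:**
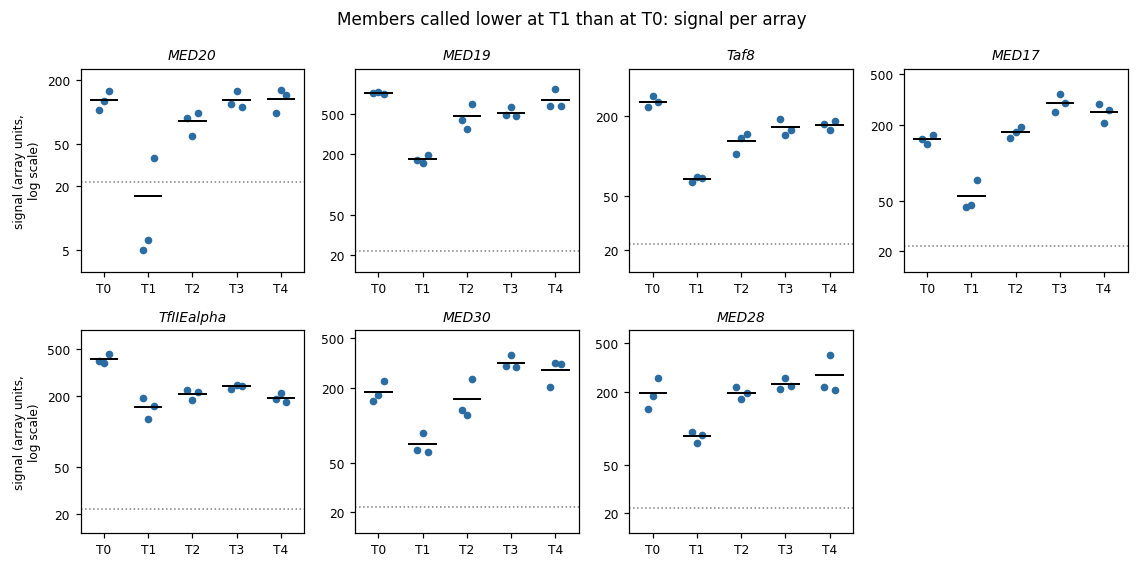
Signal on each array (points, log axis, array units) and stage mean (bars) of the 7 genes called lower at T1 than at T0, over stages T0 to T4, with the negative-control level of 21.96 dotted. In each panel the 3 T1 points lie below the 3 T0 points, and the 2 lowest points of MED20 at T1 lie below the dotted line.

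The rise at T1 was largest for Taf4, a histone-fold scaffold of TFIID that activators contact. Taf4 read 47.2, 51.3 and 26.6 at T0 and 569.0, 568.7 and 687.2 at T1. The log2 fold change was 3.69 ± 0.30 (adjusted p in limma 4.61e-07), and between 3.44 and 3.83 without any 1 array. A second probe set of Taf4 went from 31.5, 18.6 and 20.7 to 209.0, 178.7 and 218.3, a log2 fold change of 2.78. Both probe sets had every T1 array far above every T0 array. At T4 it had 313.4, 335.7 and 384.9.

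MED11, a head subunit that pairs with MED22, rose from 57.9, 54.1 and 51.6 to 197.8, 218.0 and 221.2. Its log2 fold change of 1.83 ± 0.18 (adjusted p in limma 2.28e-06) stayed called under each scaling, at 1.26 with the ribosomal and 1.33 with the hybridisation reference. Besides MED11, Taf4 did so at 3.12 and 3.18. The other 7 higher calls ended with both of these centrings. MED11 kept its new level, with signals between 167.1 and 242.0 on the arrays of T2 to T4.

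MED27, a tail subunit, went from 95.0, 87.1 and 101.1 to 242.2, 280.7 and 201.3, a log2 fold change of 1.28 ± 0.19 (adjusted p in limma 0.00011), but 0.71 and 0.78 with those centrings. TfIIA-S, the small subunit of TFIIA, had 591.7, 567.0 and 560.7 at T0 and 1555.7, 1425.0 and 1559.2 at T1. Its log2 fold change was 1.39 ± 0.20 (adjusted p in limma 7.05e-05), with 0.82 and 0.89 in the same centrings. Both genes had clear gaps between the stages.

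The histone-fold genes Taf6 and Taf10 rose too. Taf6, whose product pairs with Taf9, went from 176.9, 165.8 and 181.5 to 368.2, 508.9 and 415.2, a log2 fold change of 1.26 ± 0.22. Taf10 went from 63.8, 80.9 and 97.1 to 171.9, 204.5 and 200.1, a log2 fold change of 1.20 ± 0.19. The adjusted p in limma was 0.000408 and 0.00023. Centred on ribosomal proteins and on hybridisation controls their values were 0.69 and 0.75 for Taf6 and 0.63 and 0.69 for Taf10.

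Calls for Taf12, TfIIFalpha and MED26 were less secure. Taf12, the partner of Taf4, read 218.8, 263.1 and 307.3 at T0 and 631.8, 633.3 and 419.2 at T1. Its log2 fold change of 1.06 ± 0.21 (adjusted p in limma 0.00138) was 0.94 to 0.96 and not called without T0 replicate 2 or T1 replicate 1 or 2. TfIIFalpha, the large subunit of TFIIF, had 428.4, 301.5 and 245.8 at T0 and 755.9, 683.4 and 636.9 at T1, a log2 fold change of 1.11 ± 0.22 (adjusted p in limma 0.00112), which was 0.93 and not called without T0 replicate 4. MED26, a subunit that in mammals contacts elongation factors, read 299.9, 412.0 and 430.7 at T0 and 555.8, 801.9 and 1188.4 at T1, with no overlap. Its log2 fold change was 1.09 ± 0.38 (adjusted p in limma 0.0389), and the call ended without any 1 of the 3 T0 arrays or without T1 replicate 2 or 3, with values from 0.82 to 1.19. The second MED26 probe set read 92.2, 44.2 and 143.2 at T0 and 202.6, 116.7 and 349.8 at T1. There the stages overlapped, and it was called higher at a log2 fold change of 1.20 (adjusted p in limma 0.0432). Centred on ribosomal proteins and on hybridisation controls the values were 0.49 and 0.56 for Taf12, 0.54 and 0.60 for TfIIFalpha and 0.52 and 0.59 for MED26. After quantile normalization the MED26 call also ended, with 0.96.

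**Figure D4:**
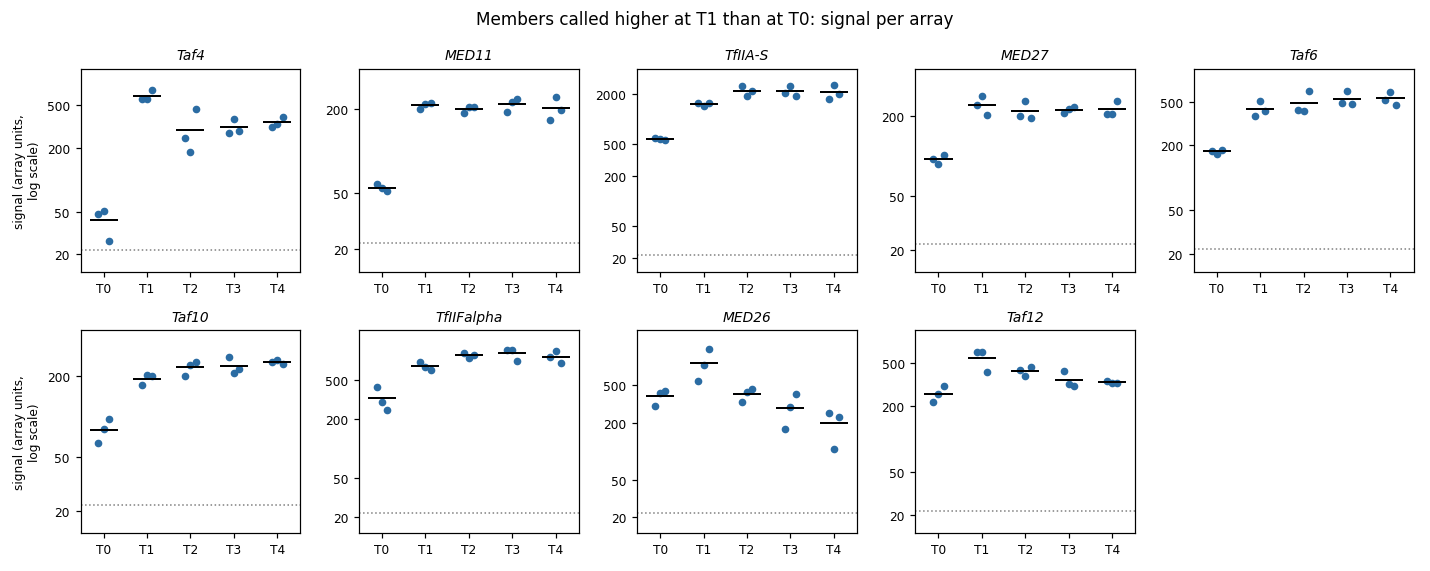
Signal on each array (points, log axis, array units) and stage mean (bars) of the 9 genes called higher at T1 than at T0, with the negative-control level of 21.96 dotted. Taf4 goes from a mean of 41.7 to one of 608, MED11, TfIIA-S, MED27, Taf6, Taf10 and TfIIFalpha keep a level above T0 to T4, and MED26 is lower again from T2 on.

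Of the 26 genes not called at T1, 10 had an adjusted p under 0.05 in limma with a smaller change. On the higher side these were MED4, MED6, MED10, Taf3, Taf9, Taf13, TfIIA-L and TfIIFbeta, with log2 fold changes from 0.57 (TfIIA-L) to 0.96 (Taf13). On the lower side they were the head subunits MED8 (-0.79) and MED18 (-0.49). MED8 had 393.2, 435.7 and 400.0 at T0 and 232.9, 241.4 and 224.5 at T1, without overlap, and was called lower with arrays centred on ribosomal proteins (-1.36) or hybridisation controls (-1.30). TfIIFbeta, the small TFIIF subunit, read 791.8, 766.0 and 815.2 at T0 and 1424.9, 1390.7 and 1110.5 at T1. Its T1 arrays all lay above those of T0, at a log2 fold change of 0.71 that missed the threshold of size.

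From T1 to T2 the calls lay mostly in Mediator. This step covered the passage into the fast phase of cellularisation. Of the 42 genes 5 were called higher, all of them Mediator subunits, and 2 lower, which is 11.9% and 4.8%, against 5.39% and 4.25% of all probe sets. Among probe sets with a mean above the negative-control level the shares were 8.09% and 6.9%. Centred on the array median or on ribosomal proteins 3 genes were higher and 2 lower, and after quantile normalization 4 and 1. With hybridisation controls as the reference 7 were higher and 0 lower, Taf8 among the higher ones. The T1 arrays enter this comparison and the one before, so each gene low on them tends to show a fall and then a rise, and the values are only set side by side. MED20 had log2 fold changes of -2.80 and then 2.17 ± 0.405, MED19 of -2.12 and then 1.34 ± 0.23, and MED17 of -1.40 and then 1.57 ± 0.22. The adjusted p in limma of the second step was 0.00241, 0.00133 and 0.000317. For MED28 the values were -1.09 and 1.12 ± 0.26, and for MED30 -1.31 and 1.08 ± 0.27 (adjusted p in limma of the second step 0.0114 and 0.0164).

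The signals of T2 show where each gene then stood. MED28 read 216.7, 174.2 and 193.6 at T2, within its T0 range, and its call ended centred on the array median (0.87) or on ribosomal proteins (0.93). MED30 read 132.8, 120.1 and 234.1, with 1 array above all T0 arrays and 2 below all of them. The MED30 call was lost when T1 replicate 1, T1 replicate 3 or T2 replicate 4 was left out, with log2 fold changes from 0.80 to 1.02. It also ended after quantile normalization (0.94) and centred on the array median (0.83) or on ribosomal proteins (0.89). Taf8 had 103.3, 137.3 and 144.9 at T2 and TfIIEalpha 224.5, 183.5 and 217.5, so that both stayed below each of their T0 arrays. Their log2 fold changes from T1 were 0.85 (adjusted p in limma 0.00642) and 0.37 (0.246), and neither was called as deposited. Taf8 was called higher centred on hybridisation controls (1.03).

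The 2 lower calls at T2 were fragile. Taf4 read 246.7, 179.9 and 457.5, a log2 fold change of -1.13 ± 0.30 from T1 (adjusted p in limma 0.0242). The call ended without any 1 T1 array or without T2 replicate 1 or 3, with values from -1.17 to -0.84, and its second probe set had -0.91. MED1, a middle subunit that in mammals contacts nuclear receptors, read 46.2, 58.0 and 59.9 at T1 and 8.8, 24.9 and 37.3 at T2. Its value of -1.11 ± 0.34 had an adjusted p of 0.0444 in limma, and the call ended without 11 of the 15 arrays in turn, with values between -1.22 and -0.70. Those 11 were T0 replicate 2, all T1 arrays, T2 replicate 1 or 3, T3 replicate 1 or 2 and all T4 arrays. The first T2 array, 8.8, lay below the negative-control level.

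No gene was called in limma from T2 to T3 or from T3 to T4. At an unadjusted p below 0.05, 5 and 3 of the 42 genes passed, against 13.8% and 12.8% of all probe sets. With the full rule 0.666% of all probe sets were higher and 0.773% lower at T3, and 0.516% and 0.558% at T4. The genes with the lowest adjusted p were MED30 for T3 (0.99, adjusted p in limma 0.0906) and TfIIFbeta for T4 (-0.77, adjusted p in limma 0.129). Without T2 replicate 4, the bright one, MED30 was called higher at T3, at 1.27. MED30 had 296.8, 363.6 and 291.9 at T3, above its T2 arrays. TfIIFbeta read 1018.1, 1011.3 and 706.3 at T3 and 416.2, 696.9 and 491.9 at T4, with no overlap.

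At the end of the series the machinery stood mostly at or above its maternal level. For T4 against T0, 11 of the 42 genes were called higher (26.2%) and 1 lower (2.4%), against 11.9% and 12.3% of all probe sets and 16.8% and 19.2% of those with a mean above the negative-control level. The median log2 fold change was 0.43 for the genes and 0.19 for all probe sets, but -0.25 and -0.49 with the ribosomal and 0.02 and -0.22 with the hybridisation reference. Centring gave 3 higher and 4 lower genes on ribosomal proteins, 6 and 3 on hybridisation controls and 9 and 2 on the array median. Of the 13966 probe sets, 693 were higher and 3343 lower on ribosomal proteins. They numbered 899 and 2469 on hybridisation controls and 1200 and 2118 on the array median. This comparison shares the T0 arrays with that of T1 and is no separate support for it.

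Taf4 had a log2 fold change of 2.88 ± 0.30, TfIIA-S of 1.85 ± 0.20, MED11 of 1.75 ± 0.18 and Taf10 of 1.61 ± 0.19 for T4 against T0 (adjusted p in limma 4.97e-06, 4.93e-06, 3.61e-06 and 1.63e-05). TfIIA-S reached 1741.4, 2574.8 and 2025.5 at T4, and Taf10 258.1, 267.2 and 249.4. In each of these genes every T4 array lay above every T0 array. Taf10 was not called centred on ribosomal proteins (0.93), while the other 3 were called under each scaling. Taf6 (1.57), TfIIFalpha (1.42) and MED27 (1.18) were also higher. Their values were 0.89, 0.74 and 0.50 centred on ribosomal proteins, and that of MED27 was 0.77 on hybridisation controls and 0.96 on the array median.

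Another 4 genes were called higher at T4 without a call at T1. MED16 and MED25, tail subunits that take part in contacts with activators, had 67.7, 69.6 and 60.8 and 143.0, 72.1 and 94.4 at T0. At T4 they read 177.0, 134.3 and 163.3 and 213.4, 310.6 and 216.3, with log2 fold changes of 1.17 ± 0.22 and 1.23 ± 0.24 (adjusted p in limma 0.000809 and 0.00124). TfIIEbeta, the small TFIIE subunit, went from 34.7, 59.5 and 56.8 to 125.1, 109.0 and 163.6, a log2 fold change of 1.29 ± 0.22 (adjusted p in limma 0.000428). These 3 genes had stages without overlap, and all 3 calls ended centred on ribosomal proteins (0.49, 0.55 and 0.61) or hybridisation controls (0.76, 0.82 and 0.88), and that of MED16 also on the array median (0.95). The fourth, Taf12L, is described below with its relatives.

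TfIIEalpha was the only gene called lower at T4 as deposited. It had 188.1, 211.9 and 177.9 there, a log2 fold change of -1.06 ± 0.19 from T0 (adjusted p in limma 0.000482), and it was -0.98 and not called without T0 replicate 4. MED26, at 255.4, 105.3 and 228.6, had a log2 fold change of -1.01 that did not pass (adjusted p in limma 0.056). Without T1 replicate 1 or 3, T3 replicate 1 or 3 or T4 replicate 1 it was called, with values between -1.23 and -0.62 over all 15 arrays left out in turn. It was also called lower centred on the array median (-1.23), ribosomal proteins (-1.69) or hybridisation controls (-1.42). TfIIFbeta was called lower with the ribosomal (-1.27) and hybridisation (-1.0) references, and Taf8 with the ribosomal one (-1.24). The second probe set of MED26 had -0.01 for T4 against T0, so the probe sets of MED26 differed there.

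Subunits that work as partners did not all move alike. Taf8 and Taf10, which pair through their histone folds, were called in opposite directions at T1, at -1.81 and 1.20. Taf4 and Taf12 both rose at T1 (3.69 and 1.06), and at T4 Taf12 had 346.1, 330.7 and 332.3 and a log2 fold change of 0.36 from T0, not called, while Taf4 had 2.88. Taf6 and Taf9, another histone-fold pair, had 1.26 and 0.73 at T1 and 1.57 and 0.97 at T4, of which both values of Taf9 missed the threshold of size. The subunits of TFIIE stood at -1.32 (TfIIEalpha) and 0.51 (TfIIEbeta) at T1, and at -1.06 and 1.29 at T4. For TFIIF the values were 1.11 (TfIIFalpha) and 0.71 (TfIIFbeta) at T1, and 1.42 and -0.59 at T4. For TFIIA they were 1.39 (TfIIA-S) and 0.57 (TfIIA-L), and 1.85 and 0.51. The differences between partners were not tested, and each value is relative to the same arrays, so that centring on another reference shifts both partners alike.

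Within Mediator the modules were split. Of 6 measured head subunits MED11 was higher and MED17 and MED20 lower at T1, of 6 middle subunits MED26 was higher and MED19 lower, and of 7 tail subunits MED27 was higher and MED28 and MED30 lower. The module medians were -0.64, 0.58 and 0.29 on the log2 scale, against 0.08 over all probe sets. The head median was below 0 under each scaling. With the ribosomal and hybridisation references it was -1.21 and -1.14, that of the middle 0.02 and 0.08 and that of the tail -0.28 and -0.22. The medians over all probe sets were then -0.49 and -0.43, so the middle and tail medians still lay above them. The placing of MED19, MED28 and MED30 differs between structural models. MED14, the scaffold that joins head, middle and tail, had signals between 30.1 and 86.7 over the 15 arrays and was called in no comparison. At T4 the tail had 3 of 7 subunits higher (MED16, MED25 and MED27) with a median of 0.79, against 0.38 for the head and -0.11 for the middle. The shares called higher there were 11.9% of all probe sets and 16.8% of those with a mean above the negative-control level. Of the tail, MED25 alone was higher on the array median (tail median 0.56), and none was with the ribosomal (0.10) or hybridisation (0.38) reference. The medians of all probe sets for T4 against T0 were 0.19 as deposited, and -0.03, -0.49 and -0.22 in these centrings. With the kinase module, whose genes do not carry a MED symbol, 2 of 4 were called higher at T2. They were Cdk8, its kinase (72.5 ± 19.7 at T1 and 177 ± 25.4 at T2, SD, n = 3), and kto, the MED12 subunit (79.3 ± 22.2 and 186 ± 22.3). At T0 Cdk8 had 147 ± 45.7 and kto 127 ± 48.7, so both rises started from lower T1 means, and the limit of shared T1 arrays holds here too. Centred on the array median neither was called at T2, and with the ribosomal reference Cdk8 alone was. The shares called higher at T2 were 5.39% of all probe sets and 8.09% of those with a mean above the negative-control level. By T4 kto had reached 488 ± 152, while Cdk8 had 203 ± 45.6 and was not called against T0 (log2 fold change 0.46).

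Paralogues differed in their level over background. Taf10b, the neighbour of Taf10 in the genome, stayed close to the negative-control level, with signals from 14.8 to 55.6 over the 15 arrays and log2 fold changes of -0.01 at T1 and 0.06 at T4, while Taf10 rose. Taf12L, a relative of Taf12 that serves in the testis, had 13.9, 15.5 and 8.9 at T0, all below the negative-control level. At T4 it read 31.6, 63.4 and 29.0, at least 1.76-fold higher than that level (adjusted p in limma 0.00431). In this bound the dim side stands at 21.96 and the bright side at the mean of the log2 signals. Without T4 replicate 2 the log2 fold change of Taf12L fell from 1.22 to 0.92 and was not called. It was not called either after quantile normalization (0.95) or centred on ribosomal proteins (0.54) or hybridisation controls (0.81). TfIIA-S-2 had signals from 0.7 to 8.8 on the 15 arrays, all below the negative-control level, so that no fold is given beside the rise of TfIIA-S. Of 5 measured testis TAF homologues, Taf12L among them, 2 were called higher at T4. The other was mia, which is related to Taf6, below the level on all T0 arrays and at 66.3 ± 21.7 at T4, at least 2.9-fold higher. The remaining genes, can, sa and nht, were below the level on all T0 arrays and were not called, and at T4 it was passed by 1 of their arrays, the nht array at 43.7. None of the 4 measured testis genes (Mst87F, Mst84Da, dj and Mst98Ca) was called at T4 in limma, and their sum was 76.8 to 123.2 at T0 and 109.0 to 185.3 at T4.

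Among the 34 genes above the negative-control level on all 15 arrays, MED31, TfIIB and MED6 had the smallest spans of stage means. MED31, a small and highly conserved middle subunit, ranged from 255.5 to 517.7 over the 15 arrays, and its stage means spanned 0.45 on the log2 scale. TfIIB, which bridges TBP and the polymerase, lay between 39.3 and 75.3, with stage means within 0.48, and MED6 of the head between 104.1 and 187.5, within 0.68. MED6 had its 3 T1 arrays, at 163.6, 187.1 and 182.4, above those of T0, at 110.3, 104.1 and 109.5 (log2 fold change 0.68, adjusted p in limma 0.0148), under the threshold of size. The F test over the stages gave an adjusted p in limma of 0.186 for MED31, 0.264 for TfIIB and 0.0892 for MED6, which does not show that they were constant. Taf1, the largest subunit of TFIID, had 38.5, 25.1 and 17.9 at T0 and 47.1, 54.6 and 60.4 at T4 (0.87, adjusted p in limma 0.0217) and was not called, though it was without T0 replicate 2 (1.10). Taf7, which binds Taf1, and TfIIS, an elongation factor that frees stalled polymerase, stayed near the negative-control level, with signals from 5.3 to 36.7 and from 10.0 to 54.6. TfIIS had 30.0, 24.4 and 10.0 at T0 and 54.6, 26.8 and 22.9 at T1, which overlapped.

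The remaining genes had smaller changes. Taf5, a WD-repeat subunit of TFIID, had 236.7, 250.1 and 220.1 at T0 and 402.6, 339.0 and 338.7 at T4, a log2 fold change of 0.59. Taf3 went from 363 ± 30.8 to 712 ± 131 (0.95) and Taf9 from 168 ± 12.9 to 337 ± 18.6 (0.97; SD, n = 3). Taf3 was called at T4 without T0 replicate 4 or T4 replicate 2, with values from 0.82 to 1.09 over the arrays left out, and Taf9 without T0 replicate 4 or T4 replicate 1 (0.91 to 1.01). Taf9 was also called after quantile normalization (1.22). Taf13, the partner of Taf11, rose to 179 ± 22.8 at T1 from 88.0 ± 6.30 and was back at 86.2 ± 4.92 at T4. Its value of 0.96 at T1 was called without T0 replicate 2 or T1 replicate 1 or 2, after quantile normalization (1.22) and on the array median (1.13). In Mediator, MED4, called higher at T1 after quantile normalization (1.04), and MED10 of the middle module had their highest means at T1 (232 ± 32.0) and T2 (322 ± 33.9), and MED15, a tail subunit bound by activators, its highest at T2 (252 ± 55.2). MED24 of the tail stood at 227 ± 44.3 at T0 and 398 ± 82.2 at T4, and MED18 of the head at 309 ± 63.1 and 407 ± 22.3. None of these genes was called in any of the 5 comparisons as deposited.

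The factors that work beside the members were set out from lists of known subunits. TFIIH, which opens the promoter and phosphorylates the polymerase, had 5 of 9 measured subunits lower at T1, out of 10 listed, with a median of -1.16. Of all probe sets 15% were lower, and of those with a mean above the negative-control level 23.7%. The 5 TFIIH subunits were Mat1 (527 ± 24.0 at T0 and 32.4 ± 4.90 at T1, log2 fold change -3.76 ± 0.26), mrn (-1.94), CycH (-1.82), Tfb1 (-1.40) and Xpd (-1.16). Mat1 and CycH belong to its kinase subcomplex, whose kinase gene Cdk7 had 161 ± 19.6 and 179 ± 19.9 and was not called. Tbp, the TATA-binding subunit of TFIID, was lower at T1 as well, at 207 ± 44.0 and 92.2 ± 12.4 (log2 fold change -1.09 ± 0.19, adjusted p in limma 0.00036), and its relative Trf2 had 264 ± 67.2 and 517 ± 64.5, not called.

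The measured polymerase subunits and the pausing and elongation factors held higher calls at T1. Of 12 listed RNA polymerase II subunits 4 were measured, so most of the enzyme was not covered. Of these 4 subunits 3 rose, Polr2J (1.26), Polr2L (1.08) and Polr2E (1.01), and Polr2H had -0.66. Of 9 pausing and elongation factors 3 rose, among them TH1, a subunit of the pausing factor NELF (120 ± 31.8 to 292 ± 49.8), and Spt5, part of the factor DSIF (500.2 ± 55.5 to 1127 ± 58.1). The third, Su(Tpl), an elongation factor of the ELL family, rose from arrays all below the negative-control level to 44.4 ± 3.72, at least 2.02-fold. SAGA, the co-activator that shares TAFs with TFIID, had 1 of 10 subunits higher at T1, Spt3 (1.09). With the ribosomal and hybridisation references no polymerase subunit was higher at T1 and Polr2H was lower, Su(Tpl) was the only elongation factor higher and CycT was lower, and in SAGA Spt3 was not called and Ada2b was lower. Quantile normalization gave 4 higher SAGA subunits (Ada3, Saf6, Spt3 and Spt7), 4 higher elongation factors with spt4 added, and 2 higher polymerase subunits without Polr2E. On the array median 3 SAGA subunits were higher (Ada3, e(y)2 and Spt3), and Trf2 was called higher. The 5 TFIIH subunits and Tbp stayed lower with the ribosomal and hybridisation references. Tbp and Xpd were not called after quantile normalization or on the array median. These counts as deposited stand beside 7.82% higher and 15% lower of all probe sets, and are not tests of the complexes. Of probe sets with a mean above the negative-control level, 12.6% were higher and 23.7% lower. All 13966 probe sets shifted with the reference as well, from 1092 higher and 2097 lower as deposited. The ribosomal reference gave 327 and 3152, and the hybridisation reference 342 and 2844. Quantile normalization gave 1433 and 1772, and the array median 1716 and 1880.

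**Figure D5:**
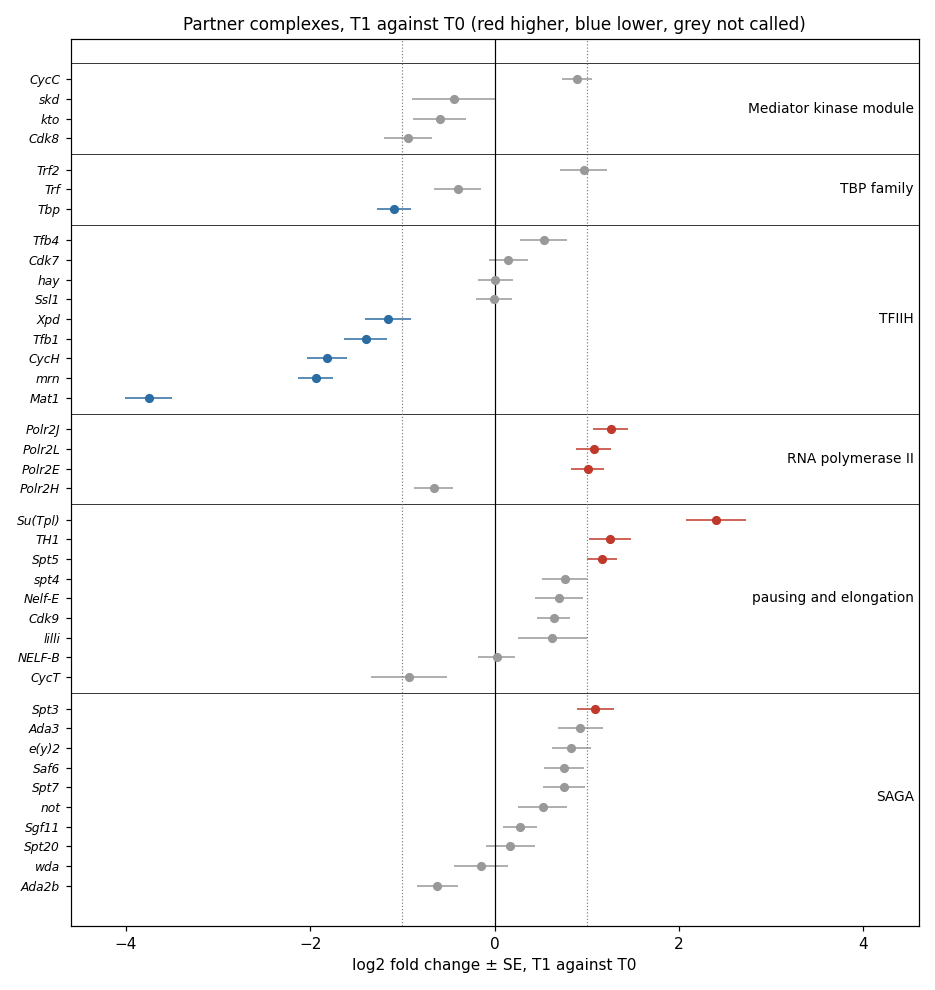
Log2 fold change with its standard error at T1 against T0 for the measured genes of 6 partner groups, with dotted lines at 1 and -1. The 5 blue points of TFIIH and that of Tbp lie below -1, and 3 points each of RNA polymerase II and of the pausing and elongation factors are red.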

How the data were processed

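Per the submitters' processing notes, the deposited signal values come from MAS5, whose version is not given in the sources used here. There is 1 linear signal per probe set and array in 14010 rows, with no detection calls. The 44 control probe sets were left out, and 13966 were tested. Symbols came from the platform annotation, with 1 symbol for 12443 probe sets, and were updated through Entrez identifiers to RefSeq names. Members and gene lists were chosen with earlier results of these data known.

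The pseudocount of 7.3 equals the lower quartile of an array's signals, taken as the middle value among arrays. Log2(signal + 7.3) was fitted with 1 mean per stage over all 15 arrays in limma 3.58.1 (statmod 1.5.0, R 4.3.3), with Benjamini-Hochberg adjustment over all probe sets of a comparison. The fit was tested on simulated data. Lists were described by counts and medians, without a set test. Array values were printed for up to 4 called genes per direction and comparison, the 6 highest and 3 lowest at T0, the 3 steadiest and paralogues, and also for other called genes, chosen after their values were seen. Partner genes were named where called, and Cdk7, Polr2H and Trf2 after their values were seen. Partner and module lists were also counted under the other scalings, an alternative chosen after seeing the data.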

Additional observations from a re-analysis of the deposited data

How the results depend on the processing

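Of 35 changes called for the members, 12 stayed called under all alternatives run, 9 more ended only centred on ribosomal proteins or hybridisation controls, and none changed sign. Centred on ribosomal proteins, 2 members were higher at T1 against T0, 3 higher at T2 against T1, and 3 higher and 4 lower at T4 against T0. Centred on hybridisation controls, 2 were higher at T1, 0 lower at T2 in limma, 6 higher and 3 lower at T4 against T0, and 18 passed the F test in place of 33. The share of all probe sets that passed the F test with that reference is not given here. On the array median 3 were higher at T2 and 2 lower at T4 against T0. Quantile normalization gave 4 lower at T1 and 1 lower at T2. With a pseudocount of 29.6, the median signal, 3 were higher and 1 lower at T2 and 0 lower at T4 against T0, and with one of 1 there was 1 lower at T2. Without the dimmest 40% of probe sets, and with an intensity trend and robust settings, 2 were lower at T4 against T0. With the 2 stages alone 0 were lower at T2, and with the lowest probe set per gene 1. Array weights moved no count by over 1.5 times.

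With each array left out in turn, members higher and lower numbered 7 to 9 and 6 to 7 at T1, 4 to 5 and 0 to 2 at T2 against T1, 0 to 1 and 0 at T3 against T2, 0 and 0 at T4 against T3, and 11 to 13 and 0 to 2 at T4 against T0, and 28 to 33 passed the F test. The fall to 0 at T2 came without any 1 T1 array or T2 replicate 1 or 3, and that at T4 without T0 replicate 4.

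With the replicate number as a block, 1 member was lower at T2, 1 higher at T3 (MED30, 1.14) and 29 passed the F test. The block ended the calls of MED28 (-0.99) and TfIIFalpha (0.99) at T1 and of MED28 (1.04), MED30 (0.93) and Taf4 (-1.15) at T2, and added MED25 (1.02) at T2 and Taf3 (1.01) at T4 against T0. Same-numbered arrays of different stages had deviations correlated between -0.0418 and 0.0752 over probe sets, so nothing here shows that the numbers pair the samples. Dim genes near the negative-control level are limited by signal over background.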
